A study of Mus musculus with 298 samples.

Results

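Small noncoding RNAs held 37.99% of the TPM (a length-corrected share of each library's transcripts) in the blood of mice with an inducible BCR-ABL transgene, and 7SL RNA alone held 32.2%. The genes described here are the 508 of 14605 rows of the expression table whose Ensembl identifier carries the GENCODE mouse type snoRNA (249 genes), snRNA (161), misc_RNA (66), scaRNA (29) or ribozyme (3); no row had the type scRNA. Among the rows of that table the rule used the annotation and no expression value. By its name, the deposited table had itself been filtered on expression, so genes below that filter have no row. A mean of at least 1 TPM over all libraries was reached by 202 of the 508 (122 snoRNA, 41 snRNA, 19 misc_RNA, 18 scaRNA and 2 ribozyme genes), and only these entered tests across genes, among 10519 genes of any type. The other 306 stayed below it, the nearest at 0.984 TPM with the lowest gene above it at 1.00 TPM, and 280 of the 508 were at 0 in most of the libraries.

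Each of these RNAs works in a particle with proteins. 7SL is the scaffold of the signal recognition particle, which brings ribosomes that make secreted and membrane proteins to the endoplasmic reticulum, and 7SK holds the transcription elongation factor P-TEFb inactive in the nucleus. The RNAs of RNase P and RNase MRP process precursors of tRNA and rRNA, the U1, U2, U4, U5 and U6 snRNAs build the major spliceosome and U11, U12, U4atac and U6atac the minor one. Most snoRNAs guide chemical modification of rRNA and most scaRNAs that of snRNA, and in mammals nearly all of them are cut from introns of other genes, whereas 7SL, 7SK, RNase P, MRP, U6 and Y RNAs are made by RNA polymerase III from their own genes.

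The 298 libraries came from 20 C57BL/6 mice of genotype tTA+/-, BCR-ABL+/- of both sexes, 6 to 8 weeks old at the start, all raised on tetracycline water at 0.5 g/L, which keeps BCR-ABL off. In the CML cohort (6 mice, 94 libraries) tetracycline was withdrawn after week 0 and stayed away. In the TKI cohort (7 mice, 99 libraries) it was withdrawn in the same way and the kinase inhibitor nilotinib was given by gavage at 50 mg/kg daily from week 6 to week 10, with BCR-ABL left on afterwards. In the TOTO cohort (4 mice, 48 libraries) tetracycline was withdrawn for 6 weeks and then given again for 12 weeks. The control cohort (3 mice, 57 libraries) carried the same transgenes and stayed on tetracycline. The transactivator is driven by SCL gene elements, so BCR-ABL is induced only where these are active, and the labels name 3 sequencing batches, each constant within a mouse. RNA was taken from whole blood although the tissue label reads PBMC, and the haemoglobin genes, which mark red cells, held 40.3% of TPM on average (0.331% to 74.8%). In bulk blood, fewer cells of a type and less RNA per cell cannot be told apart. A library contained between 2552 and 13260 genes at 1 TPM or more; control mouse 490 at week 17 had the lowest number, with 7SL at 56.6% of TPM, and enters no test.

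Sequences are given for 3 sets of genes on which the results turn. They lie on GRCm39 and are written as DNA, 5′ to 3′ along the gene's strand, from the GENCODE transcripts. The first set is 4 copies of U2, the snRNA that pairs with the intron branch point, which had very unequal levels and changes. Gm24950 (chr11:101532574-101532764, plus strand) is the most abundant and equal to the named gene Rnu2-10. Capitals in Gm26316 (chr11:101495676-101495866, plus), Gm25360 (chr1:72265399-72265589, plus) and Gm22973 (chr12:59087121-59087311, plus) mark bases that differ from Gm24950.
Gm24950: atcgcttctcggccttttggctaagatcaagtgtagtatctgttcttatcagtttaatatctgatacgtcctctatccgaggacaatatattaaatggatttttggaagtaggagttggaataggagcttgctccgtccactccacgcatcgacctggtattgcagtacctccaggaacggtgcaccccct
Gm26316: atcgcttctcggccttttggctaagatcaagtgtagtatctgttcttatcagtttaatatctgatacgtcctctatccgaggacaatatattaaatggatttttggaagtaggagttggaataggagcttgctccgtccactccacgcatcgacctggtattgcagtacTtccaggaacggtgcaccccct
Gm25360: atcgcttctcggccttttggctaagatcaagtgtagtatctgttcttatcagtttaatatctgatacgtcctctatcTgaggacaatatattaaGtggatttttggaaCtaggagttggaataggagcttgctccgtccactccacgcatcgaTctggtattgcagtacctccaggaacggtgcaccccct
Gm22973: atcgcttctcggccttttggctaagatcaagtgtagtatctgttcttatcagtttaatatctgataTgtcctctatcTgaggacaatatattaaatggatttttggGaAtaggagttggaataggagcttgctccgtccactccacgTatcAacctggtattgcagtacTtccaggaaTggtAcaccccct
With positions counted from 1 at the 5′ end and the base of Gm24950 first, Gm26316 differs by C170T alone. Gm25360 differs by C78T, A95G, G109C and C154T, and Gm22973 by C67T, C78T, A107G, G109A, C148T, G152A, C170T, C179T and G183A.
The Y RNAs, small RNAs bound by the Ro60 protein, are shown with capitals where each differs from the other: Rny1 (chr6:47765003-47765114, minus) and Rny3 (chr6:47758558-47758659, plus).
Rny1: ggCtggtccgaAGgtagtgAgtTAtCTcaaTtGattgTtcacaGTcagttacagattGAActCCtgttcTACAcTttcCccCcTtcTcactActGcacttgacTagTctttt
Rny3: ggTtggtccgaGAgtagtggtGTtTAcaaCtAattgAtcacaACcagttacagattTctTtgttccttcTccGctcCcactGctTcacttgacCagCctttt
The last set is a pair of snoRNAs with 93.75% identity that sit in different genes, Gm24727 in Gsr (chr8:34181829-34181972, plus) and Gm22988 in Eif4a1 (chr11:69560461-69560604, minus), with capitals at the 9 bases that differ.
Gm24727: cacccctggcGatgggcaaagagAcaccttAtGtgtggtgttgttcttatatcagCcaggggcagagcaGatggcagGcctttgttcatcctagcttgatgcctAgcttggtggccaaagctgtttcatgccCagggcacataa
Gm22988: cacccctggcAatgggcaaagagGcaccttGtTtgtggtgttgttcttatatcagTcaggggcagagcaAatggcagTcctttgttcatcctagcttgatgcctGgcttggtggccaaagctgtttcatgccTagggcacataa

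The split of reads between near-identical copies is uncertain. At 90% identity or more, U1 had 15 genes in the table (8 reached a mean of 1 TPM), U2 had 8 (7), U5 had 7 (4) and U6 had 40 (10), and 19 of the 508 genes had an identical copy elsewhere in the annotation, none of which has a row; Rn7s2 is among the 19, so reads of its copy count for it. Other genes overlap a second entry: RNase MRP RNA averaged 2152 TPM at Rmrp and 1462 TPM at a long noncoding entry of the same symbol, telomerase RNA had 0.684 TPM at Terc against 11.5 TPM at its long noncoding entry, and U3 RNA had 322 TPM at Snord3a against 1.67 TPM at a second entry. The Rmrp split moved with the batch. Its median was 0.1117% of TPM in batch 2021_E, 0.2153% in 2022_A and 0.2362% in 2022_B, against 0.3655%, 0.3175% and 0.3212% for both entries summed.

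A few RNAs made up nearly all of this signal. Rn7s2 held 84.76% of the TPM of all small noncoding RNAs, Rn7sk (7SK) 7.793% and Rpph1 (RNase P RNA) 3.437%, while all genes beyond the 10 most abundant held 1.738%. In TPM, a measure per transcript length, Rn7s2 averaged 321781 (144915 to 560004), Rn7sk 29584 (3097 to 103420) and Rpph1 13048 (2114 to 50362). The next were Rmrp, the U1 gene Gm26444 at 0.1904% of all TPM, the U2 gene Gm24950 at 0.1693% and Scarna10 at 0.1292%. Rnu12, the U12 snRNA of the minor spliceosome, averaged 185 TPM, Rny3 71.3, Rny1 48.9, Rn7s6 36.2, Snord118 (U8, which takes part in rRNA processing) 24.5, Rnu11 9.31, the vault RNA Vaultrc5 7.77 and Rnu4atac 1.67 TPM.

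The share of 7SL in all TPM was higher in TKI mice than in controls at weeks 6 and 10, and the ranges overlapped once haemoglobin was left out. In TKI mice 7SL held 24.9% ± 3.6 of TPM at week 0, 39.9% ± 5.3 at week 6 and 38.9% ± 6.6 at week 10 (SD, n = 7), and in control mice 28.5% ± 9.99, 21.2% ± 5.8 and 20.2% ± 0.55 (SD, n = 3). At week 6 the TKI range of 32.5% to 49.9% did not overlap the control range of 14.5% to 24.7%. CML mice had 27.2% ± 4.7 at week 0 (SD, n = 6), 37.4% ± 6.2 at week 10 (SD, n = 5) and 31.6% ± 9.7 in their last week (SD, n = 6), where they spread from 18.9% to 44.0%. TOTO mice had 31.8% at week 6, 22.3% at week 7, 31.4% at week 8 and 23.8% at week 18 on average. Haemoglobin ran against it: it held 27.2% of TPM in TKI mice and 59.3% in control mice at week 6, and 7SL made up 54.6% ± 7.9 of what was left without haemoglobin (SD over 298 libraries). Of TPM without haemoglobin it held 55.02% ± 4.2 in TKI mice (48.4% to 60.5%) and 53.03% ± 9.4 in control mice (45.1% to 63.4%) at week 6, and 54.2% ± 3.3 (49.6% to 58.7%) and 44.0% ± 8.0 (38.1% to 53.1%) at week 10 (SD, n = 7 and 3), ranges that overlapped in both weeks.

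**Figure D1:**
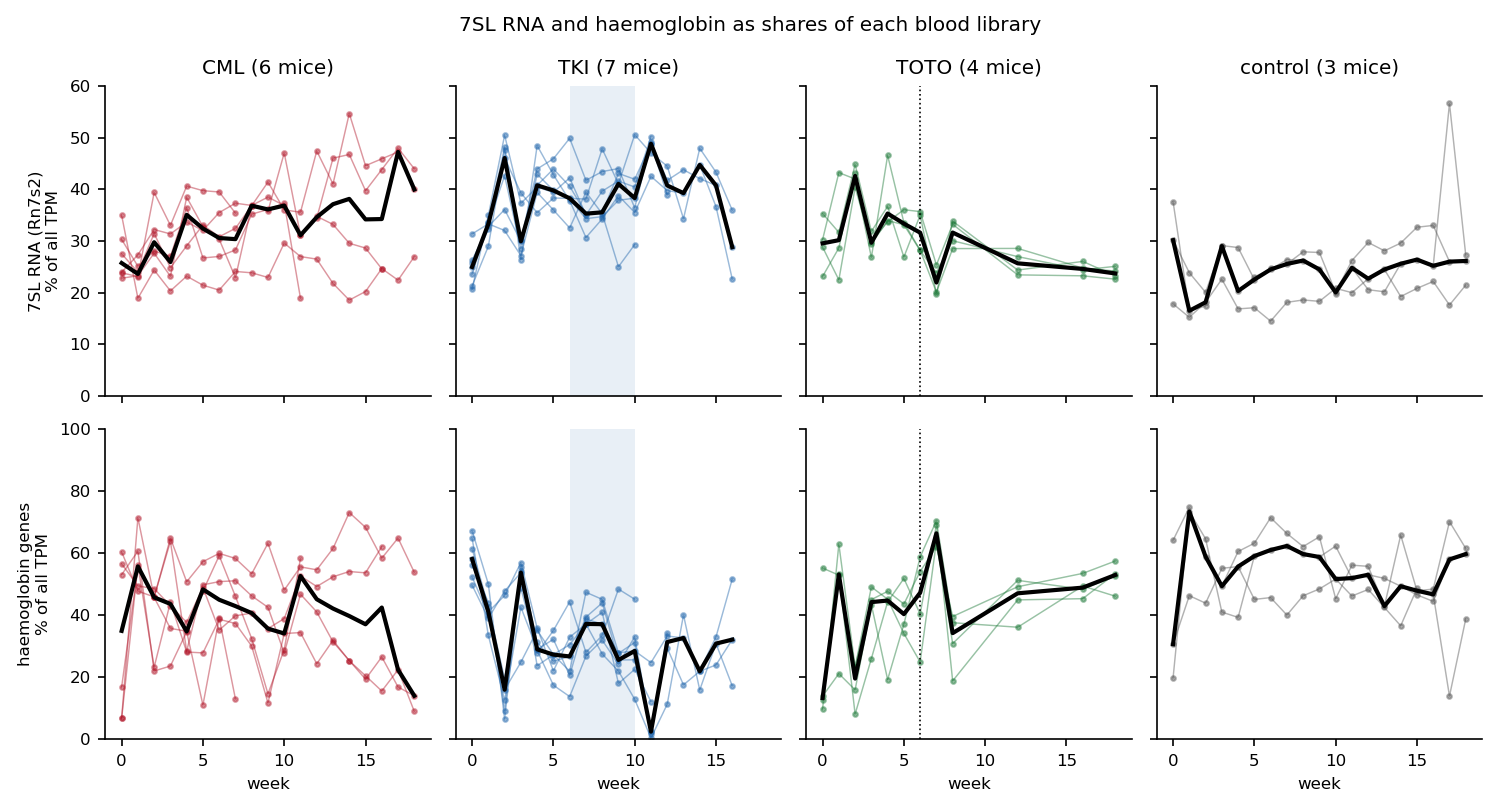
Share of TPM in percent (y axis) of 7SL RNA (Rn7s2, upper row) and of the haemoglobin genes (lower row) by week (x axis) in the CML, TKI, TOTO and control cohorts; each thin line is a mouse and the black line the cohort median. Shading marks weeks 6 to 10 of nilotinib and the dotted line week 6, when TOTO mice went back on tetracycline; the 7SL share in TKI mice at week 6 lies between 32.5% and 49.9%, above the control mice.

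As a gene, Rn7s2 passed the test in 1 of the 12 comparisons, the late one in TOTO mice (limma on log2 of TPM + 1, Benjamini-Hochberg adjusted p under 0.05 over 10519 genes). At week 18 its level was 241617, 250878, 232521 and 225983 TPM in the 4 TOTO mice, against 282161, 281598, 350013 and 356655 TPM at week 6. All 4 mice were lower at week 18 and the sets did not overlap, and it fell by 0.41 ± 0.15 (log2, SE; adjusted p = 0.0419). After 6 weeks off tetracycline its change from week 0 was 0.37 ± 0.14 (adjusted p = 0.058), with 12 of 17 mice higher, and that change minus the one in control mice was 0.77 ± 0.37 (adjusted p = 1). Rn7s6, the minor 7SL gene, passed in none of the 12. Leaving out TOTO mouse 476, 483 or 545, or the mouse block, ended the one call.

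Over all 298 libraries the genes whose log2 level went most closely with Rn7s2 were Tspo (Pearson r = 0.828), a mitochondrial outer membrane protein, Qsox1 (0.816), a thiol oxidase, the glycolysis enzymes Pkm (0.811) and Aldoa (0.81), and the glucose transporter Slc2a3 (0.801). The lowest were Bola3 (-0.824), Gm16867 (-0.814), the globin Hbq1a (-0.805), Diaph3 (-0.802) and Paqr9 (-0.768). Among small noncoding RNAs Rny1 came first at 0.497, then Rpph1 at 0.465, with Rn7s6 at 0.322 and Rn7sk at 0.294. The libraries share mice, and TPM shares sum to a constant, so these values are a description.

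Without Rn7s2 the small RNAs held 5.79% ± 3.1 of TPM over all libraries (SD; 0.855% to 19.9%). Over all 20 mice the median was 2.85% at week 1 and 4.72% at week 0. In TOTO mice the mean was 4.09% at week 6, 2.74% at week 7, 9.96% at week 8, 7.66% at week 12 and 5.18% at week 18. In the 6 TKI mice with libraries past the end of nilotinib it was 11.6% ± 5.6 in the last week (SD), against 5.08% at week 10; in control mice it was 4.65% ± 2.7 at week 18 (SD, n = 3).

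**Figure D2:**
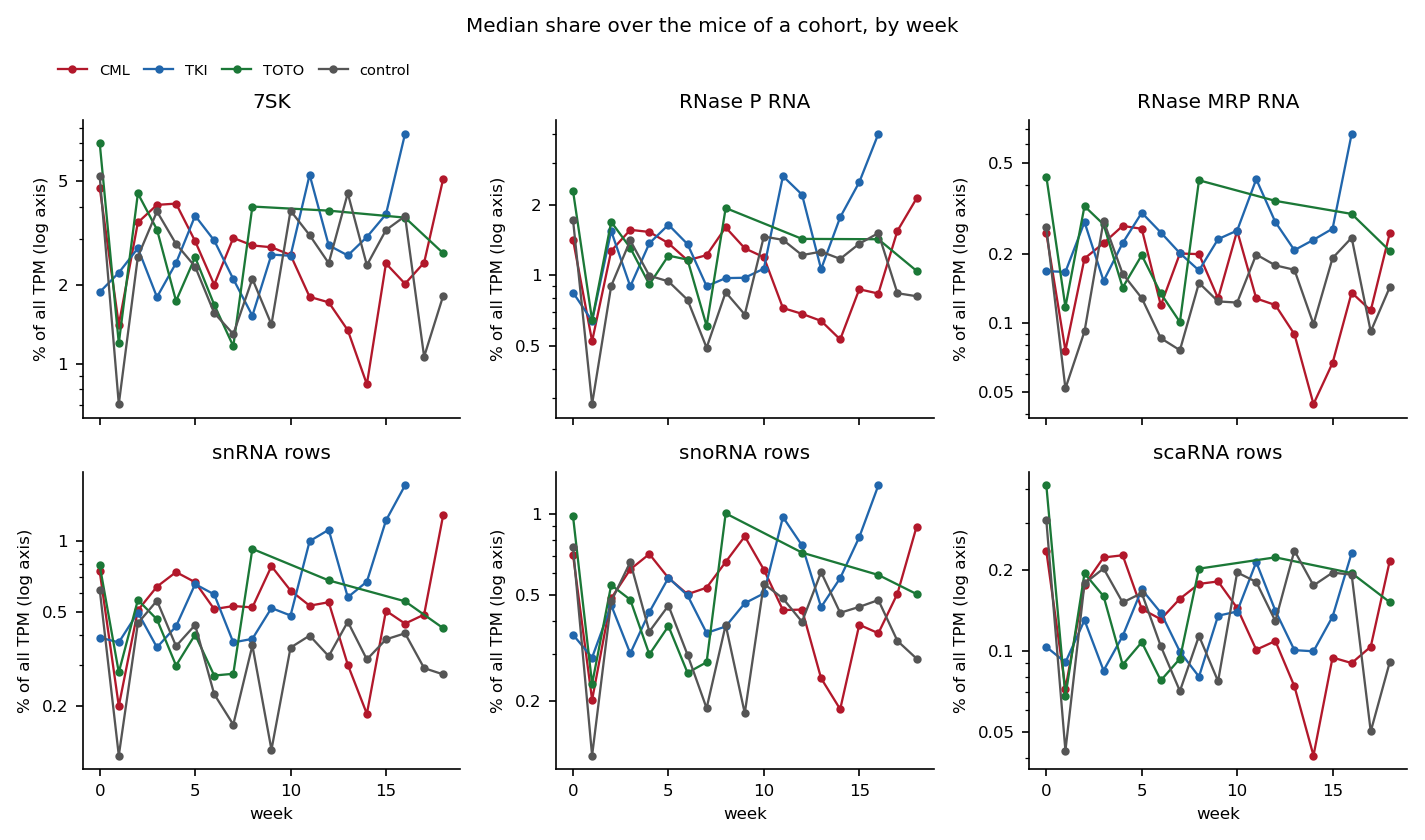
Cohort medians of the share of TPM in percent (y axis, log scale) by week (x axis) for 7SK, RNase P RNA, RNase MRP RNA, snRNA, snoRNA and scaRNA genes in the 4 cohorts. In TOTO mice snRNA held 0.275% of TPM at week 7 and 0.923% at week 8 at the median; at week 16 the TKI line rests on 3 mice.

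In the first week, after 6 weeks off tetracycline and at week 8 in TOTO mice the share of small RNAs that passed was close to or below that of all genes, at 57.9%, 17.3% and 70.8%; after nilotinib it was 37.1%, most of them higher. From week 0 to week 1 over all 20 mice, 117 of the 202 tested passed, all lower at week 1, where 56.9% of all genes passed and 53.8% were lower; the median change was -0.81 for small RNAs and -0.66 for all genes. After 6 weeks in the 17 mice off tetracycline, 7 rose and 28 fell, where 20.6% of all genes passed (4.21% higher, 16.4% lower). The medians were -0.29 for small RNAs and -0.34 for all genes. With each library rescaled to the median gene 26 of the 202 rose and 29 fell, where 7674 of 10519 genes passed, 3621 of them higher. The share of small RNAs that passed was then below that of all genes, with medians of -0.02 for both. During nilotinib 1 rose and 3 fell, where 7.94% of all genes passed (3.1% higher, 4.84% lower). After nilotinib 65 rose and 10 fell, where 26.8% of all genes passed (11% higher, 15.8% lower); the medians were 0.52 for small RNAs and -0.06 for all genes.

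From week 6 to week 8 in TOTO mice 142 rose and 1 fell, where 74.2% of all genes passed (69.7% higher, 4.48% lower), with medians of 1.41 for small RNAs and 0.95 for all genes. Relative to CML mice over the same weeks 104 rose and 1 fell, where 52.3% passed (48.9% higher, 3.44% lower). With batch as a term 15 small RNAs passed, where 898 of 10519 genes did. All TOTO mice are of batch 2022_A, and only CML mouse 484 of that batch has both weeks. The median change of the 202 genes was 1.42 in TOTO mice and 1.08 in mouse 484, that of Rn7sk 1.39 in TOTO mice and 1.85 in mouse 484, and that of Gm26444 2.09 in TOTO mice and 1.80 in mouse 484. The 4 TKI mice of that batch, on nilotinib in those weeks, had -0.38, -1.22 and -0.96 in the same order. Control mouse 488, also of that batch, had 0.35, 0.63 and 0.87. From week 6 to week 18 in TOTO mice 56 rose and 4 fell, where 26.8% passed (22.3% higher, 4.46% lower). The medians were 0.71 for small RNAs and 0.44 for all genes. With batch as a term 4 rose and 9 fell, where 72 of 10519 genes passed, 8 of them higher. The median was then -0.38 for small RNAs and 0.09 for all genes. Single mice set some of these counts: the last was 20 without TOTO mouse 476 and 107 without mouse 545, the 6-week count was 19 without TOTO mouse 483, and 23 without TOTO mouse 482 or CML mouse 480, and the count relative to CML mice was 49 without TOTO mouse 483.

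In the first week, when TKI, CML and TOTO mice had lost tetracycline and controls had not, no class held a gene that rose, and the counts lower, where 53.8% of all genes were lower, were 20 of 41 snRNA, 67 of 122 snoRNA, 17 of 18 scaRNA, 11 of 19 misc_RNA and both ribozyme genes. The shares of snRNA (48.8%), snoRNA (54.9%) and misc_RNA (57.9%) genes were near that of all genes. Rn7sk had 5907 to 48502 TPM with a median of 15291 at week 1, against 9536 to 103420 with a median of 24224 at week 0, ranges that overlap widely. Its change was -1.08 ± 0.28 (adjusted p = 0.0116), lower in 14 of 20 mice. Rpph1 changed by -1.10 ± 0.24 (adjusted p = 0.00725; 17 of 20 mice) and Rmrp by -1.26 ± 0.30 (adjusted p = 0.00857; 15 of 20). Snord17, a box C/D snoRNA, had a median of 79.0 TPM at week 1 and 239 TPM at week 0 and fell by 1.74 ± 0.33 (adjusted p = 0.00304; 18 of 20 mice). Snord118 fell by 1.56 ± 0.35 and Gm24950 by 0.82 ± 0.22, each in 18 of 20 mice. Rn7s2 (0.01 ± 0.12) and Rny1 (0.33 ± 0.28) did not pass.

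Cohorts differed in their values for the first week. Averaged over mice, the median change of the 202 genes was -0.12 and 0.09 in the TKI batches, -1.09, -1.22 and -1.41 in the CML batches, -1.56 in TOTO mice, and -0.99 and -0.69 in the batches of control mice, which stayed on tetracycline. Without the TKI cohort, an alternative chosen after seeing the data, 152 of 202 small RNAs passed, a smaller share than the 9245 of 10519 genes that did. The median was -1.19 for small RNAs and -1.27 for all genes. Blood markers moved too. All 16 B-cell genes fell (median -1.50), all 15 platelet genes rose (1.19) and 5 of 6 haemoglobin genes rose (0.62). The summed haemoglobin level did not rise at the median, with 496455 TPM at week 1 and 526276 TPM at week 0 over all mice. That of the erythroid list was 6268 and 6266 TPM. The part of these markers in the fall was not tested. With each library rescaled to the median gene 59 of the 202 small RNAs passed, where 6945 of 10519 genes did. With batch as a term 3 passed, where 38 of 10519 genes did.

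After 6 weeks off tetracycline several of the small RNAs that fell sat inside larger genes that had fallen too. Gm56158 is a misc_RNA gene in an intron of Bach2, the B-cell transcription factor gene. Whether reads of unspliced Bach2 RNA counted for it was not tested. In the 17 mice Gm56158 had a median of 0.863 TPM (0.189 to 5.93) at week 6, against 3.96 TPM (0.739 to 41.3) at week 0. It was lower in 16 of 17 mice and fell by 1.73 ± 0.31 (adjusted p = 0.000106), with Bach2 itself at -2.02. Gm25106 in Ikzf3, a lymphocyte transcription factor gene, fell by 1.43 (adjusted p = 0.000189; Ikzf3 -1.80), Gm55801 in Zfp318 by 1.40 (adjusted p = 0.000287; Zfp318 -1.52) and Gm54652 in Bcar3 by 1.45 (adjusted p = 0.000107; Bcar3 -1.16). Of the 18 tested snRNA and misc_RNA genes inside another tested gene, 15 were intronic. Among the 18, 12 passed and all 12 fell, where 20.6% of all genes passed and 16.4% were lower. For 7 of these 12 the containing gene fell too, and for none did it rise. In controls, which stayed on tetracycline, Gm56158 changed by -1.24 on average in the 2 mice of batch 2021_E and by -0.06 in mouse 488.

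The 7 that rose over those weeks included 2 U2 copies and the snoRNA Gm24727. Gm25360 had a median of 37.2 TPM (11.2 to 75.0) at week 6 and 12.9 TPM (5.21 to 44.4) at week 0, with overlapping ranges, and rose by 1.13 ± 0.33 (adjusted p = 0.012; 13 of 17 mice). Gm22973 rose by 0.96 (adjusted p = 0.03) and Gm24727 by 1.12 ± 0.36 (adjusted p = 0.0237), each in 13 of 17 mice, and the U1 gene Rnu1b1 by 1.07 ± 0.34 (adjusted p = 0.0225; 12 of 17). Gm24950 (-0.20 ± 0.28) did not pass. Of the neutrophil granule genes 16 of 17 rose (median 2.50) and of the B-cell genes 15 of 16 fell (-1.46). Averaged over mice, the median change of the 202 genes was 0.42 and 0.37 in the TKI batches, -0.66, -0.46 and -0.34 in the CML batches, -1.38 in TOTO mice, and -0.89 and -0.16 in the batches of control mice, which stayed on tetracycline. With week 1 as the baseline in place of week 0, 79 small RNAs rose and 2 fell, and most genes that passed rose too. Over all genes 2201 of 10519 passed, 1923 of them higher, with medians of 0.41 for small RNAs and 0.15 for all genes. Gm56158 was then at -0.28 and no longer passed.

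Set against controls, few small RNAs passed. Of the 202, none passed for the week 6 change minus that in controls (13 at an unadjusted p under 0.05, limma), where 0.019% of all genes passed. The median of that difference was positive, 0.39 for small RNAs (142 positive, 60 negative) and 0.40 for all genes. In the last week of CML mice minus week 18 of controls 0.0665% of all genes passed and 1 small RNA did, the U1 copy Gm26244 (8.43 ± 1.26, adjusted p = 0.000116; 18 at an unadjusted p under 0.05). That gene was at 0 in 184 of 298 libraries, and its value turned on such zeros: in the last week it was 67.1, 517, 43.9, 0, 182 and 53.4 TPM in CML mice, against 0, 681, 0, 0, 25.6 and 0 TPM at week 0. In controls it was 32.1, 0 and 0 TPM at week 18 and 25.6, 154 and 354 TPM at week 0. The change in controls alone, and that in TOTO mice minus controls, passed for none (22 and 12 at an unadjusted p under 0.05, limma; 0% of all genes in both). These comparisons share the 3 control mice. In simulated data with each comparison's spread, 5% of genes set to a log2 change of 2 passed for the week 6 difference. For the CML end and TOTO end differences 1% passed. The low counts therefore do not show that differences from controls were small.

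Some U2 copies were higher in most CML mice at their end than in controls, without passing the test. Gm25360 had 165, 142, 121, 17.5, 140 and 27.5 TPM in the last week of the 6 CML mice, against 7.48, 4.50 and 21.9 TPM in controls at week 18. Gm26316 had 43.1, 62.4, 31.4, 34.6, 67.0 and 11.8 TPM in CML mice and 2.65, 1.94 and 17.9 TPM in controls. For both genes the lowest CML mouse was below the highest control mouse and the others were above. The median difference of change was 2.42 for the 7 U2 genes and 0.08 for all genes, and none passed; for Gm26316 it was 3.22 ± 0.95 (adjusted p = 0.546).

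During nilotinib, weeks 6 to 10, 4 small RNAs passed, and the clearest was Gm24727, the snoRNA in Gsr, the glutathione reductase gene. It had 9.02, 3.90, 7.47, 10.2, 20.7, 4.48 and 7.36 TPM at week 10, against 29.2, 33.0, 53.4, 23.0, 28.2, 18.5 and 16.7 TPM at week 6, in mice 502, 507, 508, 511, 512, 513 and 514. All 7 mice were lower and only mouse 512 at week 10 came above the lowest week 6 values; it fell by 1.64 ± 0.32 (adjusted p = 0.00365), with Gsr at -1.19 (adjusted p = 0.0163). Gm26316 had 2.66, 7.18, 0, 13.6, 25.6, 13.6 and 19.0 TPM at week 10 and 23.7, 22.8, 19.8, 37.8, 22.9, 18.2 and 21.4 TPM at week 6 in the same mice. It fell by 1.50 ± 0.42 (adjusted p = 0.0261; 6 of 7 mice), while Gm24950, 1 base away, was at -0.15 ± 0.28. The scaRNA Gm23370 fell by 0.83 ± 0.26 (adjusted p = 0.0439), with its containing gene Mgat5 far from the threshold (adjusted p = 0.998), and Gm56158 rose by 0.59 ± 0.18 (adjusted p = 0.0397) with Bach2 (0.77, adjusted p = 0.0439), each in 6 of 7 mice. Neutrophil granule genes fell (16 of 17, median -1.71) and all 16 T-cell genes rose.

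Minus the change in the 5 CML mice over the same weeks, 3.41% of all genes passed, and so did 5 small RNAs, 1 higher and 4 lower, against 0.0285% and 3.38% of all genes. Gm26316 was at -2.39 (adjusted p = 0.0356), Gm24727 at -2.05 (adjusted p = 0.0179) and Gm56158 at 1.11 (adjusted p = 0.0209). The other 2 were low snoRNAs, Snora44 in Snhg12 (-2.64 ± 0.59, adjusted p = 0.0136) and Snord66 in Eif4g1 (-1.90 ± 0.49, adjusted p = 0.0276), whose containing genes stood at 0.23 and -0.03. Snora44 had 0, 5.20, 0, 0, 3.14, 0 and 1.93 TPM at week 10 in the TKI mice and 10.1, 4.47, 9.57, 4.81 and 5.67 TPM in the CML mice. Without the mouse block none of the 10519 genes passed in either comparison, and so no small RNA did. Leaving out single TKI mice gave 1 to 7 small RNAs for the change in TKI mice alone. The count was 1 without mouse 507 or 508 and 7 without mouse 511 or 514.

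Spliceosomal U1 and U2 RNAs rose after nilotinib ended. The 6 TKI mice with libraries past week 10 were compared between week 10 and their last week. Of 41 snRNA genes 21 rose and 3 fell, where 11% of all genes rose and 15.8% fell. The rises included 7 of 8 U1 genes (median 1.74) and all 7 U2 genes (median 2.40). Of 4 U5 genes 2 rose, and of 10 U6 genes 2 rose and 1 fell. Reads may be shared between near-identical copies, so copies of a family are not independent of each other. The snRNA genes as a whole held 1.31% ± 0.81 of TPM in the last week, against 0.460% at week 10. The last library was from week 11 in mice 511 and 513, week 12 in mouse 508 and week 16 in mice 502, 507 and 512.

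Gm24950 had 1851, 4499, 1908, 3106, 7042 and 3725 TPM in the last week of mice 502, 507, 508, 511, 512 and 513, against 1972, 983, 1301, 1214, 1108 and 1851 TPM at week 10. Of the 6 mice, 5 were higher, and it rose by 1.28 ± 0.44 (adjusted p = 0.0305); leaving out mouse 507, 512 or 513 ended the call. Gm26316 had 39.3, 91.2, 16.6, 38.4, 150 and 33.8 TPM in the last week and 2.66, 7.18, 0, 13.6, 25.6 and 13.6 TPM at week 10. It was higher in 6 of 6 mice and rose by 2.72 ± 0.34 (adjusted p = 2.59e-06). Gm25360 had 174, 519, 52.9, 108, 631 and 132 TPM in the last week and 44.7, 17.9, 22.6, 31.3, 40.3 and 35.2 TPM at week 10, with no overlap (2.58 ± 0.38, adjusted p = 1.89e-05). Gm22973 rose in the same 6 mice by 2.40 ± 0.36 (adjusted p = 2.85e-05), to 51.4 to 399 TPM in the last week, against 11.5 to 29.1 TPM at week 10.

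Among U1 genes, Gm26444 had 1890, 4543, 2201, 2944, 8653 and 2679 TPM in the last week and 1960, 1316, 1705, 948, 1498 and 1533 TPM at week 10, and rose by 1.18 ± 0.44 (adjusted p = 0.0468; 5 of 6 mice), a call that ended without mouse 507, 508, 511, 512 or 513. Rnu1b1 rose by 1.96 ± 0.38 (adjusted p = 0.000306) in 6 of 6. The largest changes, in the U2 copy Gm24497 (4.57 ± 1.03, adjusted p = 0.00127) and the U1 copy Gm26244 (3.22 ± 0.95, adjusted p = 0.012), came from genes at 0 in 120 and 184 of all libraries and held in 4 of 6 mice. Of the minor spliceosome, Rnu11 (0.40 ± 0.29), Rnu12 (0.53 ± 0.36) and Rnu4atac (0.10 ± 0.27) did not pass.

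Few genes of the proteins that bind these RNAs passed in this comparison, where 26.8% of all genes passed (11% higher, 15.8% lower). None of 14 Sm and LSm core genes passed (1 at an unadjusted p under 0.05, limma; median -0.08), 1 of 25 other major snRNP genes rose (median -0.06), none of 6 genes of the SMN complex, which loads Sm proteins on snRNAs, passed (1 at an unadjusted p under 0.05), and none of 26 RNA polymerase III genes passed (3 at an unadjusted p under 0.05). Of the 7SK particle Hexim1 rose (0.91 ± 0.28, adjusted p = 0.0169) and its kinase Cdk9 rose (0.85 ± 0.30, adjusted p = 0.0361) and Hexim2 fell by 0.71 ± 0.23 (adjusted p = 0.0202), while Rn7sk itself was at 1.03 ± 0.64 (adjusted p = 0.253). Of the signal recognition particle only Srp9 of 10 genes rose (1.00 ± 0.30, adjusted p = 0.0136). Marker genes of blood cells moved over the same weeks: 16 of 17 neutrophil granule genes rose (median 3.06), 14 of 16 mature neutrophil genes rose (2.37), 15 of 16 B-cell genes fell (-2.42) and all 15 platelet genes fell (-2.60). The summed level of the granule genes was 4723 to 11939 TPM in the last week and 394 to 1531 TPM at week 10, and its part in the snRNA rise was not tested.

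**Figure D3:**
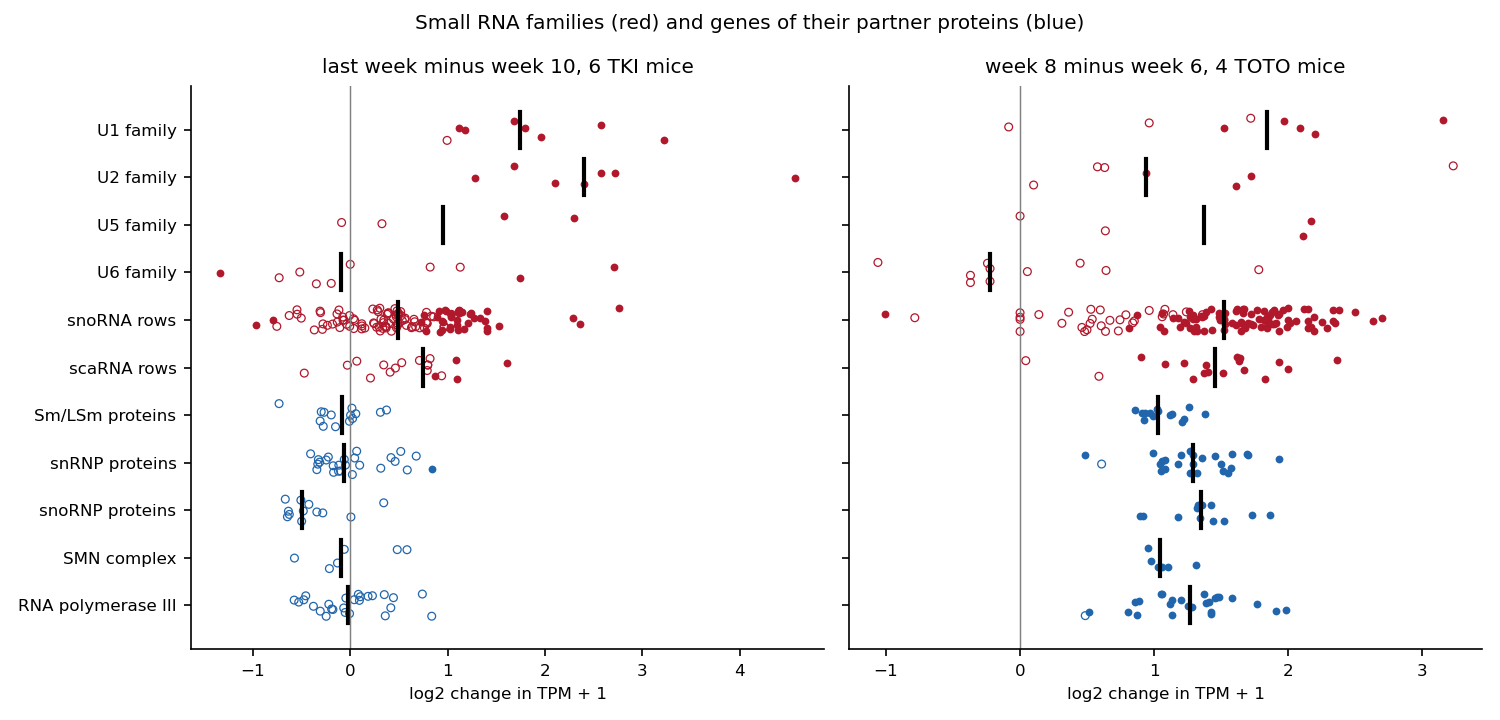
Log2 change (x axis) of each tested gene in small RNA families (red) and in lists of their partner proteins (blue), after nilotinib in 6 TKI mice (left) and from week 6 to week 8 in 4 TOTO mice (right). Filled points passed the test and black bars are medians; on the left U1 and U2 have medians of 1.74 and 2.40 with the Sm and LSm list at -0.08, on the right that list has a median of 1.03.

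At week 11, 1 week after nilotinib, the counts were higher still, among small RNAs and among all genes. With week 11 in place of the last week, an alternative chosen after seeing the data, 122 small RNAs rose and 5 fell. Over all genes 3615 of 10519 passed, 2717 of them higher, against 2823 and 1159 for the last week. The medians at week 11 were 0.78 for small RNAs and 0.23 for all genes. Gm24950 then had 2140, 3847, 2213, 3106, 5814 and 3725 TPM, above the week 10 value in each of the 6 mice. Rn7sk had 33170, 60154, 48038, 54265, 69393 and 51422 TPM at week 11, against 38946, 18433, 27465, 18186, 24292 and 25911 TPM at week 10, higher in 5 of 6 mice with mouse 502 lower. Haemoglobin at week 11 was 24.7% of TPM in mouse 502 and between 0.331% and 12.1% in the other 5, against 12.8% to 33.0% over the 6 mice at week 10; its part was not tested.

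Many snoRNAs and scaRNAs rose after nilotinib, and few of the genes that contain them did. All 140 tested lie inside another gene, and for 121 that gene was tested as well, 90 distinct genes in all. Of the 121, 58 are intronic and the others overlap an annotated exon, where reads of both cannot be told apart. For the intronic ones, reads of unspliced RNA of the containing gene were not separated either. After nilotinib 37 of the 121 passed, 35 of them higher, where 26.8% of all genes passed (11% higher, 15.8% lower). The containing gene passed in 10 of the 121 pairs, and was higher in 4 of those. In 2 pairs both passed in one direction. The medians were 0.49 for the small RNAs and -0.19 for the containing genes, and the small RNA stood above its containing gene in 102 of 121 pairs. Scarna10, a guide RNA in Ncapd2, rose by 1.40 ± 0.43 (adjusted p = 0.0157; 6 of 6 mice), with Ncapd2 at 0.13 (adjusted p = 0.767). Gm23370 rose by 1.61 ± 0.27 (adjusted p = 7.17e-05) with Mgat5 at -0.02 (adjusted p = 0.977). The snoRNP proteins, which pack these RNAs, gave 0 of 12 (2 at an unadjusted p under 0.05, limma; median -0.49).

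When tetracycline was given back, most small RNAs and most of their containing genes rose, as did 69.7% of all genes. From week 6 to week 8 in TOTO mice 93 of the 121 small RNAs passed, where 74.2% of all genes passed. The containing gene passed in 104 of the 121 pairs, so that most pairs (81) passed in both members. Medians were 1.52 for the small RNAs and 1.13 for the containing genes. Snord94 had 50.8, 65.6, 162 and 98.0 TPM at week 8 in mice 476, 482, 483 and 545, against 8.59, 9.54, 15.0 and 32.3 TPM at week 6. All values at week 8 were above those at week 6, and it rose by 2.50 ± 0.40 (adjusted p = 1.61e-05), with its containing gene Ptcd3 at 1.88 (adjusted p = 4.41e-05). Snord49b rose by 2.63 ± 0.58 (adjusted p = 0.000376) and its containing noncoding gene 2410006H16Rik by 1.17 (adjusted p = 0.00123). Snord118 rose by 2.19 ± 0.37 and Snord3a by 1.80 ± 0.30, in 4 of 4 mice.

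**Figure D4:**
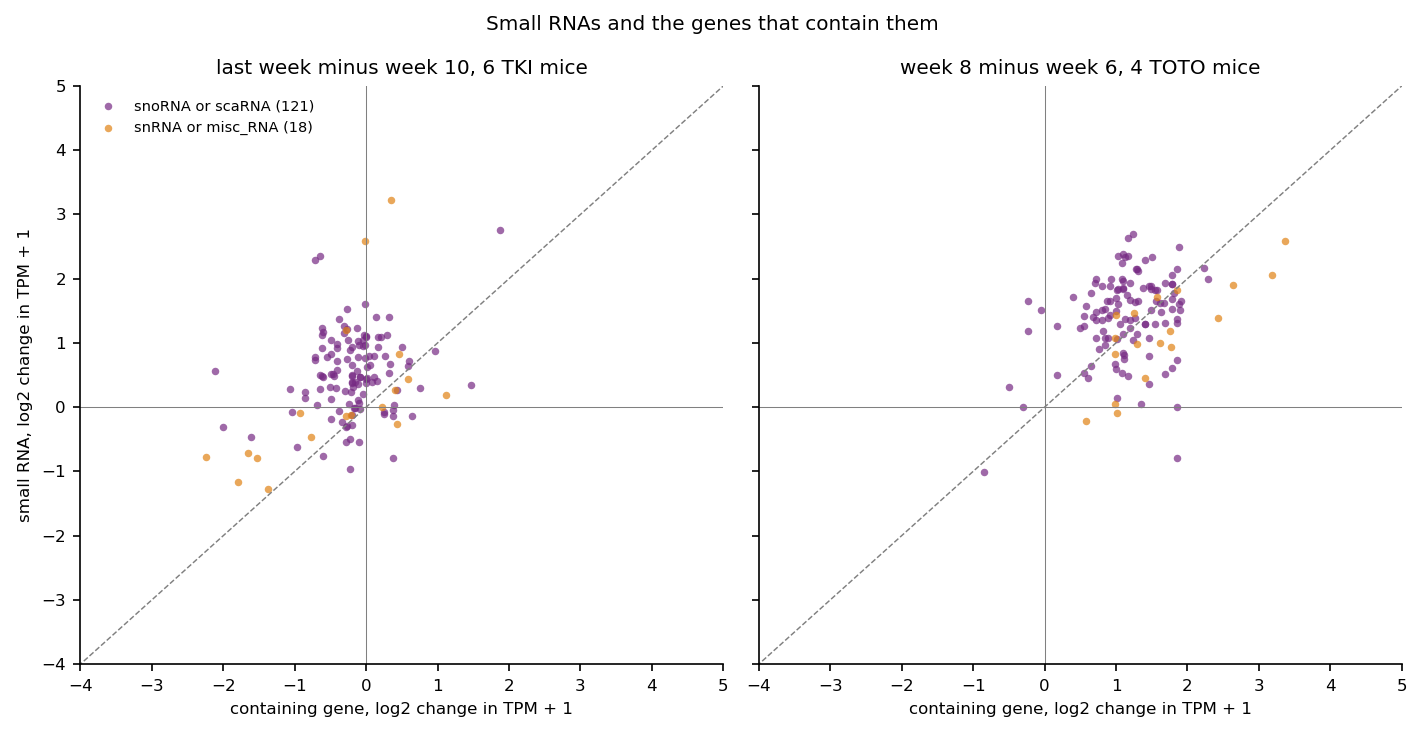
Log2 change of each small RNA (y axis) against that of the tested gene containing it (x axis) after nilotinib in 6 TKI mice (left) and from week 6 to week 8 in 4 TOTO mice (right), with 121 snoRNA and scaRNA genes in purple and 18 snRNA and misc_RNA genes in orange. Of the 121, 102 lie above the dashed line of equal change on the left and 82 on the right.

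The nuclear RNAs at the top of the list rose with them. Rn7sk had 38263, 37179, 80753 and 41637 TPM at week 8 in the TOTO mice, against 9349, 14867, 18826 and 38562 TPM at week 6. All 4 mice were higher, with mouse 545 already high at week 6, and it rose by 1.39 ± 0.33 (adjusted p = 0.000723). Rpph1 had 15731, 15834, 28615 and 22893 TPM at week 8 and 5401, 11913, 11441 and 18557 TPM at week 6 (0.89 ± 0.26, adjusted p = 0.00374). Rmrp had 2806, 4005, 7349 and 4367 TPM at week 8 and 852, 1101, 1591 and 2263 TPM at week 6 (1.68 ± 0.34, adjusted p = 0.000169). Rn7s2 was at -0.01 ± 0.09 over the same weeks. Of their protein partners 6 of 7 genes of the 7SK particle and all 7 of RNase P and MRP rose, where 69.7% of all genes did.

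Among spliceosomal RNAs, Gm26444 had 1977, 2762, 7789 and 4687 TPM at week 8 and 645, 433, 1063 and 2045 TPM at week 6, and rose by 2.09 ± 0.38 (adjusted p = 7.53e-05). Gm24950 rose by 1.72 ± 0.34 (adjusted p = 0.000154) and Rnu12 by 2.26 ± 0.36 (adjusted p = 1.69e-05). Rnu12 did not overlap between weeks: 198, 302, 578 and 479 TPM at week 8 and 67.3, 30.6, 95.1 and 153 TPM at week 6. Of U1 genes 5 of 8 rose (median 1.84), of U2 genes 3 of 7 (0.94), and of 10 U6 genes none passed (0 at an unadjusted p under 0.05, limma; median -0.22). The U2 copies Gm25360 (0.10) and Gm22973 (0.58) did not pass here. All 14 Sm and LSm genes (median 1.03), 24 of 25 major snRNP genes, all 12 snoRNP genes and 25 of 26 polymerase III genes rose, where 69.7% of all genes rose with a median of 0.95.

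This comparison moved most of the transcriptome. TOTO mice had 11420 genes at 1 TPM or more on average at week 8, against 8968 at week 6, with 7322 at week 7 between them. The summed level of the nuclear long noncoding RNAs had a median of 751 TPM at week 8 and 153 TPM at week 6. All 16 B-cell genes rose (median 3.05), all 16 mature neutrophil genes fell (-1.82) and 16 of 17 granule genes fell (-2.18); their part was not tested. With week 7 in place of week 8 the picture turned: 1 small RNA rose and 8 fell. Over all genes 3792 of 10519 passed, 18 of them higher, a larger share than among the 202 small RNAs. The medians were -0.09 for small RNAs and -0.58 for all genes. Rn7sk was at -0.58, Rmrp at -0.44 and Rny3 at -1.08. With each library rescaled to the median gene, week 8 gave 39 small RNAs higher and 7 lower, where 7106 of 10519 genes passed, 3824 of them higher. The medians were 0.58 for small RNAs and 0.07 for all genes, and Rn7sk (0.22), Rmrp (0.51) and Rpph1 (-0.28) no longer passed.

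By week 18 fewer small RNAs were above week 6, and of 9 named genes that passed, 8 no longer did with batch as a term and 7 without the mouse block. Among those that rose was Gm22489 in Gas5, a noncoding host of snoRNAs, with 27.6, 4.71, 18.1 and 12.0 TPM at week 18 and 3.84, 0, 0 and 0 TPM at week 6 (3.26 ± 0.39, adjusted p = 1.98e-07), while Gas5 was at 0.44 (adjusted p = 0.319). Snord49b was still higher (2.00, adjusted p = 0.00301), as were Rnu12 (1.39 ± 0.37, adjusted p = 0.00725) and Rnu11 (1.28 ± 0.35, adjusted p = 0.00814). Rn7sk (0.53 ± 0.28), Rmrp (0.60 ± 0.33) and Rpph1 (-0.07 ± 0.29) did not pass. The 4 that fell were Gm24414 (-1.31, adjusted p = 0.0181), Rn7s2, and the U2 copies Gm26316 (-1.08 ± 0.41, adjusted p = 0.0438) and Gm22973 (-1.0, adjusted p = 0.0499).

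The Y RNAs were higher at week 8 in TOTO mice and lower in the last week of TKI mice. In TOTO mice Rny3 had 60.3, 54.7, 168 and 28.2 TPM at week 8 and 12.3, 3.50, 29.1 and 26.1 TPM at week 6, and rose by 2.11 ± 0.55 (adjusted p = 0.00166); Rny1 rose by 1.27 ± 0.53 (adjusted p = 0.0326; 3 of 4 mice). After nilotinib both fell. Rny1 had 22.8, 5.54, 30.1, 31.7, 14.4 and 70.7 TPM in the last week, against 81.4, 56.9, 56.2, 47.3, 85.6 and 55.2 TPM at week 10, lower in all but mouse 513 (-1.42 ± 0.36, adjusted p = 0.00396). Rny3 had 7.66, 4.12, 59.7, 95.0, 20.1 and 134 TPM in the last week and 85.5, 69.2, 93.4, 68.3, 79.5 and 93.2 TPM at week 10 (-1.45 ± 0.44, adjusted p = 0.0141). The low values are those of mice 502, 507 and 512 at week 16; at week 15 the same mice had 27.4, 92.1 and 85.3 TPM of Rny3.

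With week 11 in place of the last week neither Y RNA passed: Rny1 was at -0.02 (adjusted p = 0.958) and Rny3 at 0.43 (adjusted p = 0.152). Within batches the mean changes of Rny1 and Rny3 were -2.08 and -2.42 in the 4 mice of 2022_A, and -0.11 and 0.50 in the 2 mice of 2022_B, whose last library was week 11. Ro60, the gene of the protein that binds both, fell by 2.23 ± 0.34 (adjusted p = 3.45e-05; 6 of 6 mice) between week 10 and the last week, and Ssb, which binds the ends of new polymerase III transcripts, was at 0.03 ± 0.30.

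Gm24727 and its containing gene both rose after nilotinib. It had 27.8, 68.3, 56.9, 37.6, 100 and 48.0 TPM at week 11, and 44.9, 82.0, 48.8, 37.6, 149 and 48.0 TPM in the last week, against 9.02, 3.90, 7.47, 10.2, 20.7 and 4.48 TPM at week 10 in the same 6 mice. No later value was as low as the highest at week 10, and it rose by 2.76 ± 0.30 (adjusted p = 4.08e-07). Gsr had 271, 382, 194, 340, 410 and 233 TPM in the last week and 53.3, 60.7, 71.8, 97.4, 118 and 92.2 TPM at week 10, and rose by 1.88 (adjusted p = 5.48e-05); since Gm24727 overlaps an annotated Gsr exon, reads of both may be shared. Gm22988, its near-identical copy in Eif4a1, was at 0.54 ± 0.36 (adjusted p = 0.301). In TOTO mice from week 6 to week 8 Gm24727 was the one small RNA that fell, to 5.68, 7.02, 11.0 and 5.39 TPM at week 8, against 13.0, 8.74, 16.7 and 26.8 TPM at week 6 (-1.01 ± 0.35, adjusted p = 0.0125; Gsr -0.84, adjusted p = 0.0567), while Gm22988 rose by 1.61 (adjusted p = 0.000239).

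**Figure D5:**
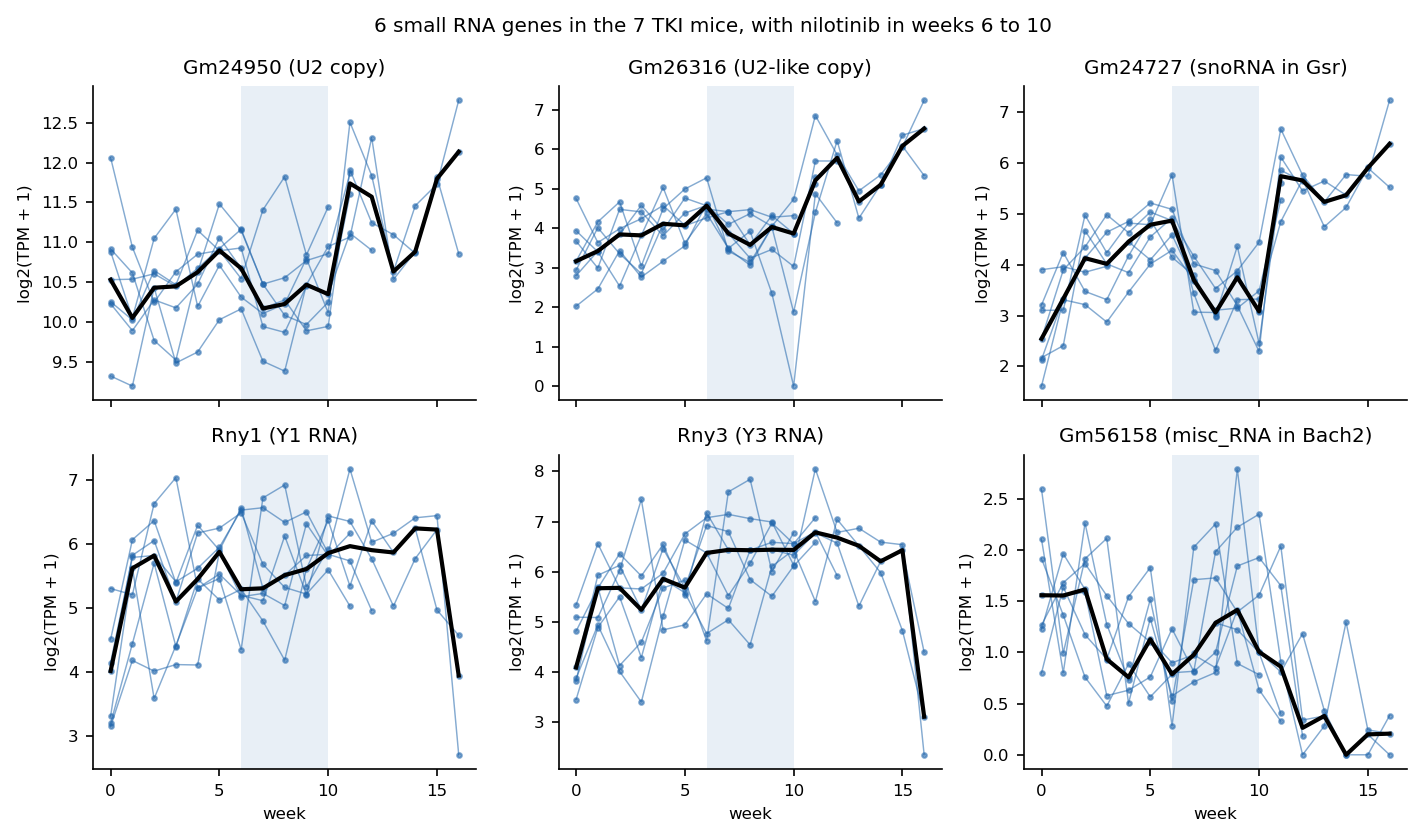
Level as log2 of TPM + 1 (y axis) by week (x axis) of the U2 genes Gm24950 and Gm26316, the snoRNA Gm24727, the Y RNAs Rny1 and Rny3, and Gm56158 in the 7 TKI mice; thin lines are mice, the black line is the log2 of the median TPM + 1 and shading marks nilotinib. Gm24727 is at 3.90 to 20.7 TPM at week 10 and at 27.8 to 100 TPM at week 11.

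Gm56158 and its containing gene both fell after nilotinib. In the last week it had 0.154, 0, 0.135, 0.255, 0.304 and 0.322 TPM in the 6 TKI mice, against 4.09, 1.94, 2.80, 0.554, 1.01 and 0.998 TPM at week 10. It was lower in 6 of 6 mice without overlap and fell by 1.16 ± 0.28 (adjusted p = 0.00207), with Bach2 at -1.79 (adjusted p = 0.000213); at week 11 it was at -0.39 and did not pass. In TOTO mice it had 10.8, 7.78, 20.9 and 4.77 TPM at week 8 and 0.189, 0.734, 0.944 and 1.58 TPM at week 6 (2.58 ± 0.33, adjusted p = 9.61e-07), and Bach2 had 42.8, 37.1, 89.2 and 53.4 TPM at week 8 and 1.60, 4.28, 3.83 and 9.76 TPM at week 6 (3.37 ± 0.38, adjusted p = 1.37e-07). Gm56158 is 65.26% identical to Rn7sk, below the 90% used here for a family, and the change of Rn7sk after nilotinib was 1.03. Of the 18 snRNA and misc_RNA genes inside a tested gene, 13 rose from week 6 to week 8, where 69.7% of all genes rose. The containing gene rose in all 18. After nilotinib 8 of the 18 passed, where 26.8% of all genes passed. In 5 of these 8 the containing gene passed in the same direction, and in none in the opposite one.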

How the data were processed

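The authors deposited 1 table of TPM, in which values are scaled to transcript length and to the total of each library, for 14605 genes and 298 libraries; the submitters' processing notes name STAR, Salmon and GRCm39, and versions are not given in the sources used here. Per the labels' protocols, RNA from whole blood with RIN above 4.0 was depleted of rRNA (KapaHyper with RiboErase, reverse stranded). TPM sums were 989100 to 999879 per library, and TPM keeps no depth, so the depth is unknown and no counting interval is given. The identifiers of 14537 rows matched the GENCODE annotation of GRCm39, which holds 3524 small noncoding genes.

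From these values each mouse gave 1 change per comparison on log2(TPM + 1), so a fold change understates that of low genes. Genes with a mean of at least 1 TPM were fitted with limma 3.58.1 (R 4.3.3; lmFit, eBayes with trend), a term per group of mice, and Benjamini-Hochberg adjustment over all 10519 genes at 0.05; the script was tested on simulated data. Errors are SE of the fit unless given as SD. The same mouse identifier marks the same animal, and its libraries deviated together in most mice: the median correlation of deviations was 0.194 for weeks 0 and 6 (over 0.1 in 14 of 20 mice), 0.241 for weeks 6 and 10 (13 of 15) and 0.403 for weeks 6 and 8 (15 of 19). p-values measure the spread between mice. Sums over small RNAs get no p. Tables used Python 3.11.15 with pandas 2.3.3 and numpy 2.4.6, figures matplotlib 3.10.9.

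The members, gene lists and comparisons were chosen with earlier results of these data known, and the families U1, U2, U5 and U6 (at least 90% identity), the genes inside larger genes and Gm22988 after values were seen. Named genes are the 10 most abundant, the 5 largest rises and 5 largest falls that passed in a comparison, the best known gene of each class, their containing genes, up to 3 genes per list of partner proteins and the 5 highest and 5 lowest correlations with Rn7s2; other named genes were chosen after their values were seen. Alternatives were rescaling to the median gene, leaving out haemoglobin and 7SL, a pseudocount of 0.1, no filter, no mouse block, another baseline or end week, a batch term and leaving out each mouse. The sequence of Rn7s2 is not reported here.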

Additional observations from a re-analysis of the deposited data

Results flagged for a closer look

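In 100 groups of 4 to 10 samples, 3 held a sample far from the others; chance flags about 1 in 20 groups. At week 0 of the TKI cohort 1 mouse had 41.1% of TPM in small noncoding RNAs, and the same group had a mouse at 9.73% without 7SL, each beyond the other mice. From week 6 to week 18 the TOTO mice had 1 mouse apart for Gm56158, at a log2 change of 2.50.

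Changes differed between cohorts under the same contrast by limma's test of the difference. In the last week of CML mice minus week 18 of controls this held for the U1 copy Gm26244 (8.43), which was at 0 in most libraries. From week 6 to week 10 in TKI mice minus CML mice it held for Snora44 (-2.64), Gm26316 (-2.39), Gm24727 (-2.05), Snord66 (-1.90) and Gm56158 (1.11). From week 6 to week 8 in TOTO mice minus CML mice it held, among named genes, for Gm56158 (3.13), Rny3 (2.16), Gm26444 (1.86), Gm24950 (1.69) and Rn7sk (1.15). With batch as a term, and with libraries rescaled to the median gene, only Gm56158 of these 5 still passed. The changes in TOTO mice and in the one CML mouse of their batch with both weeks were 2.58 and -0.68 for Gm56158, 2.11 and 1.49 for Rny3, 2.09 and 1.80 for Gm26444, 1.72 and 1.51 for Gm24950, and 1.39 and 1.85 for Rn7sk. In the 4 TKI mice of that batch, on nilotinib, the changes were 0.60, -0.03, -0.96, -0.58 and -1.22 in the same order. In its control mouse 488 they were 0.74, 1.27, 0.87, 0.54 and 0.63.

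Outside the tested weeks, CML mouse 480 at week 12 had 5.76% of TPM in snRNA genes, of which the U1 family made up 5.05%. The highest control library had 1.6%, the next highest library of any cohort 2.79% and the median of all libraries was 0.472%. The cause was not tested.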

How the results depend on the processing

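Counts of small RNAs that passed are given for the first week (117), week 6 off tetracycline (35) and minus controls (0), the CML end minus controls (1), the control end (0), the TOTO end minus controls (0), nilotinib (4) and minus CML (5), after nilotinib (75), TOTO week 8 (143) and minus CML (105), and TOTO week 18 (60), with the count as reported in parentheses. With libraries rescaled to the median gene these were 59 in the first week, 55 at week 6, 4 minus controls, 8 at the CML end, 12 under nilotinib, 46 at TOTO week 8, 29 minus CML and 35 at week 18, and Rpph1 was at -0.28 at TOTO week 8. Without haemoglobin there were 81 at week 6, 0 at the CML end, 8 and 3 under nilotinib and minus CML, and 94 at week 18, and the share of TPM was 64.1%. Without haemoglobin and 7SL there were 70 at week 6, 6 at the CML end, 8 under nilotinib and 91 at TOTO week 8, and the share without 7SL alone was 5.79%. With a pseudocount of 0.1 nilotinib minus CML gave 3. Without a filter there were 80 at week 6, 0 at the CML end, 1 and 0 under nilotinib and minus CML, 29 after nilotinib and 23 at week 18. Without the mouse as a replicate block there were 0 at the CML end, 0 and 0 under nilotinib and minus CML, 46 after nilotinib, 54 at TOTO week 8 minus CML and 6 at week 18. In those fits under nilotinib and minus CML, 0 of 10519 genes passed. With week 1 as baseline there were 81 at week 6, with Snord118 at 0.08, and 0 at the CML end. With batch as a term there were 3 in the first week, 15 at week 6, 5 at the CML end, 3 at the control end, 95 and 15 at TOTO week 8 and minus CML, and 13 at week 18. Nilotinib minus CML at the week before gave 2, and TOTO week 16 in place of 18 gave 92, with Gm24414 at 0.34. TOTO week 7 in place of 8 gave 9, with Rn7sk at -0.58, Rpph1 -0.65, Rmrp -0.44, Gm26444 -0.02, Rny3 -1.08, Rny1 -0.41, Snord49b -0.69, Snord118 -1.31 and Gm22988 -0.43, and minus CML it gave 8, with Rn7sk at -0.98 and Rny3 at -1.77. The week 11 alternative gave 127, with Rny3 at 0.43. Counts over all genes shifted between these settings too, and the cause of the shifts was not tested.

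Leaving out 1 mouse gave 87 to 132 in the first week, 19 to 51 at week 6, 0 to 0 minus controls, 1 to 1 at the CML end, 0 to 1 at the control end, 0 to 2 at the TOTO end, 1 to 7 under nilotinib, 0 to 8 minus CML, 52 to 102 after nilotinib, 97 to 143 at TOTO week 8, 49 to 126 minus CML and 20 to 107 at week 18. Control mouse 488 set the highest values at the control end (1) and the TOTO end (2). Nilotinib minus CML gave 0 without CML mouse 484, 1 without CML mouse 541, 2 without TKI mouse 507 or 508, 3 without 502 and 8 without 514.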
